A study of Mus musculus with 6 samples.

Results

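Tight junction and apicobasal polarity genes encode the belt that seals neighbouring epithelial cells at their apical border and the protein complexes that set apart the apical and basolateral membranes. The members were a list of 51 genes covering claudins, occludin relatives, junctional adhesion molecules (JAMs), junction plaque proteins, and the Par, Crumbs and Scribble complexes. Every array probe set whose annotated gene symbol was exactly one of these names was taken, which gave 50 genes read by 117 of the 45101 probe sets. Crb2 was matched by no probe set under that symbol and is not analysed here.

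RNA came from the epithelium of the mouse gonadal primordium at E10.5 (counted in days of gestation), cut out by laser microdissection. The 2 groups were wild-type (+/+) fetuses and Emx2 knockout (KO, −/−) fetuses, which lack a homeobox gene required for urogenital development, and no other allele or agent is named. Each group had 3 pools of 3 fetuses and 1 array a pool. The strain, the structure of the mutant allele, the sex of the fetuses and whether pools shared litters are not given in the sources used here, so p-values measure the spread between these pools.

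Values are the deposited intensities after scaling each array to a common level, and they are linear unless called log2. A probe set was tested if its mean log2 value over the 6 arrays exceeded that of the dimmest 40%, which corresponds to an intensity of 26.4, called the dim limit here. Values under 7.99, the 20th percentile, were set to it before log2 was taken. The comparison used limma on all 27022 probe sets that passed, with two-sided p-values adjusted by the Benjamini-Hochberg method across them and a threshold of 0.05. Fold changes are KO minus wild-type on the log2 scale, with their standard error (SE).

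The Emx2 probe set read 1302, 2120 and 1727 in the wild-type and 1678, 1480 and 1746 in KO pools, and its place relative to the deleted part is unknown, so it does not check the labels. Emx2os, the antisense transcript of the same locus, read 167, 230 and 174 in the wild-type and 44.9, 28.6 and 42.9 in KO pools (−2.30, SE 0.24, adjusted p = 0.00015), so that locus separated the groups as labelled. Xist read 20.7, 13.3 and 69.9 in the wild-type against 9321, 9327 and 9888 in KO pools, and 3 Y-linked genes fell in KO pools, so the sex of the pooled fetuses cannot be told apart from genotype. Of 12 markers of coelomic and gonadal epithelium, 11 were tested, 1 rose (Krt19, 1.02, adjusted p = 0.0052) and 2 fell (Nr5a1, −1.22, adjusted p = 0.000492, and Krt8, −0.59, adjusted p = 0.00615). Lhx9 read 5726 or more and Upk3b 2676 or more in every pool. Wt1 read 2484, 2621 and 2756 in the wild-type and 2097, 1658 and 2251 in KO pools (−0.40, adjusted p = 0.0715). Gata4 went the other way, at 229, 344 and 254 against 427, 422 and 406 (0.62, adjusted p = 0.0501). Neither passed, and Msln stayed under the dim limit. The summed level of the 12 was lower in KO (16861 to 18455) than in wild-type pools (19224 to 20379). That of 10 mesenchymal markers was higher (16318.6 to 17309.8 against 11430.7 to 12240.4), and 6 of 9 tested rose. The other tested ones, Col1a1 (0.54), Pdgfra (−0.11) and Foxf1 (−0.77), did not pass. Germ cell markers summed to 312 to 391 in KO and 502 to 568 in wild-type pools. KO replicate 2 stood apart in the neural list, with a sum of 339 against 68.5 to 111 in the other pools, Tubb3 at 161 and Elavl3 at 136, and results that rest on it are given with and without it. The part of these differences in the results below was not tested. In such samples fewer cells of a type and less RNA per cell cannot be told apart.

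In an epithelium, claudins and occludin span the membrane and form the paracellular seal, and the plaque proteins of the zonula occludens (ZO) and cingulin families tie them to actin. Par3, Par6 and atypical protein kinase C, with the GTPase Cdc42, mark the apical border, the Crumbs complex holds the apical domain, and Scribble, Dlg and Lgl proteins with the Par1 kinases hold the basolateral one. The coelomic lining is a simple epithelium, and cells leave it to populate the early gonad, so these systems are the ones by which its cells keep or give up their polarised form. The authors have reported on polarity of the same mutant epithelium elsewhere, with Tjp1 among the proteins studied.

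Of the 50 member genes, 38 had at least 1 tested probe set, 72 probe sets in all, and the other 45 probe sets lay under the dim limit. In the KO pools 3 members rose and 0 fell (2.75% and 1.93% of the array did). They were Mark1, a Par1 kinase, Cgnl1, the cingulin-like plaque protein paracingulin, and Cldn5, the claudin typical of blood vessels. These 3 calls are 4.17% of the tested member probe sets, and over the whole array 4.68% were called, so the share is close to the background. An unadjusted p under 0.05 was met by 13 member probe sets (18.1%, against 17.3% of all tested). The log2 fold changes of the 72 tested member probe sets ranged from −0.77 to 0.90, so 0 changed by 2-fold or more. Of all 27022 tested probe sets 786 did, so such changes were rare there too. Without the filter, 3 dim member probe sets exceeded 2-fold, of Mark1 (1.35), Crb1 (1.09) and Lin7b (−1.13).

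Across the members as a group the shift was small. Their median log2 fold change was 0.09 against 0.01 over all tested probe sets. Of the 72 member probe sets, 46 were positive (63.9%, against 50.9%). Wild-type and KO pools were fully separated in 18 member probe sets (25%), against 22.0% of all tested probe sets. Of the 18, 15 were higher and 3 lower in KO pools. Higher KO values made up 20.8% of the member probe sets against 12% of the array (3231 probe sets), and lower ones 4.17% against 10% (2703). The lower ones belonged to F11r, Magi3 and Pard6g. No test was made over the list. When arrays were scaled to a common median, 42 member probe sets were positive (58.3%, against 46.4% of all). Relative to each probe set's mean over the 6 pools, the median member stood at −0.05, −0.02 and −0.02 log2 units in the wild-type pools and at 0.08, 0.07 and 0.03 in the KO pools. The spread between replicates was ordinary, with a median within-group SD of 0.21 for the members and for all tested probe sets alike.

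**Figure D1:**
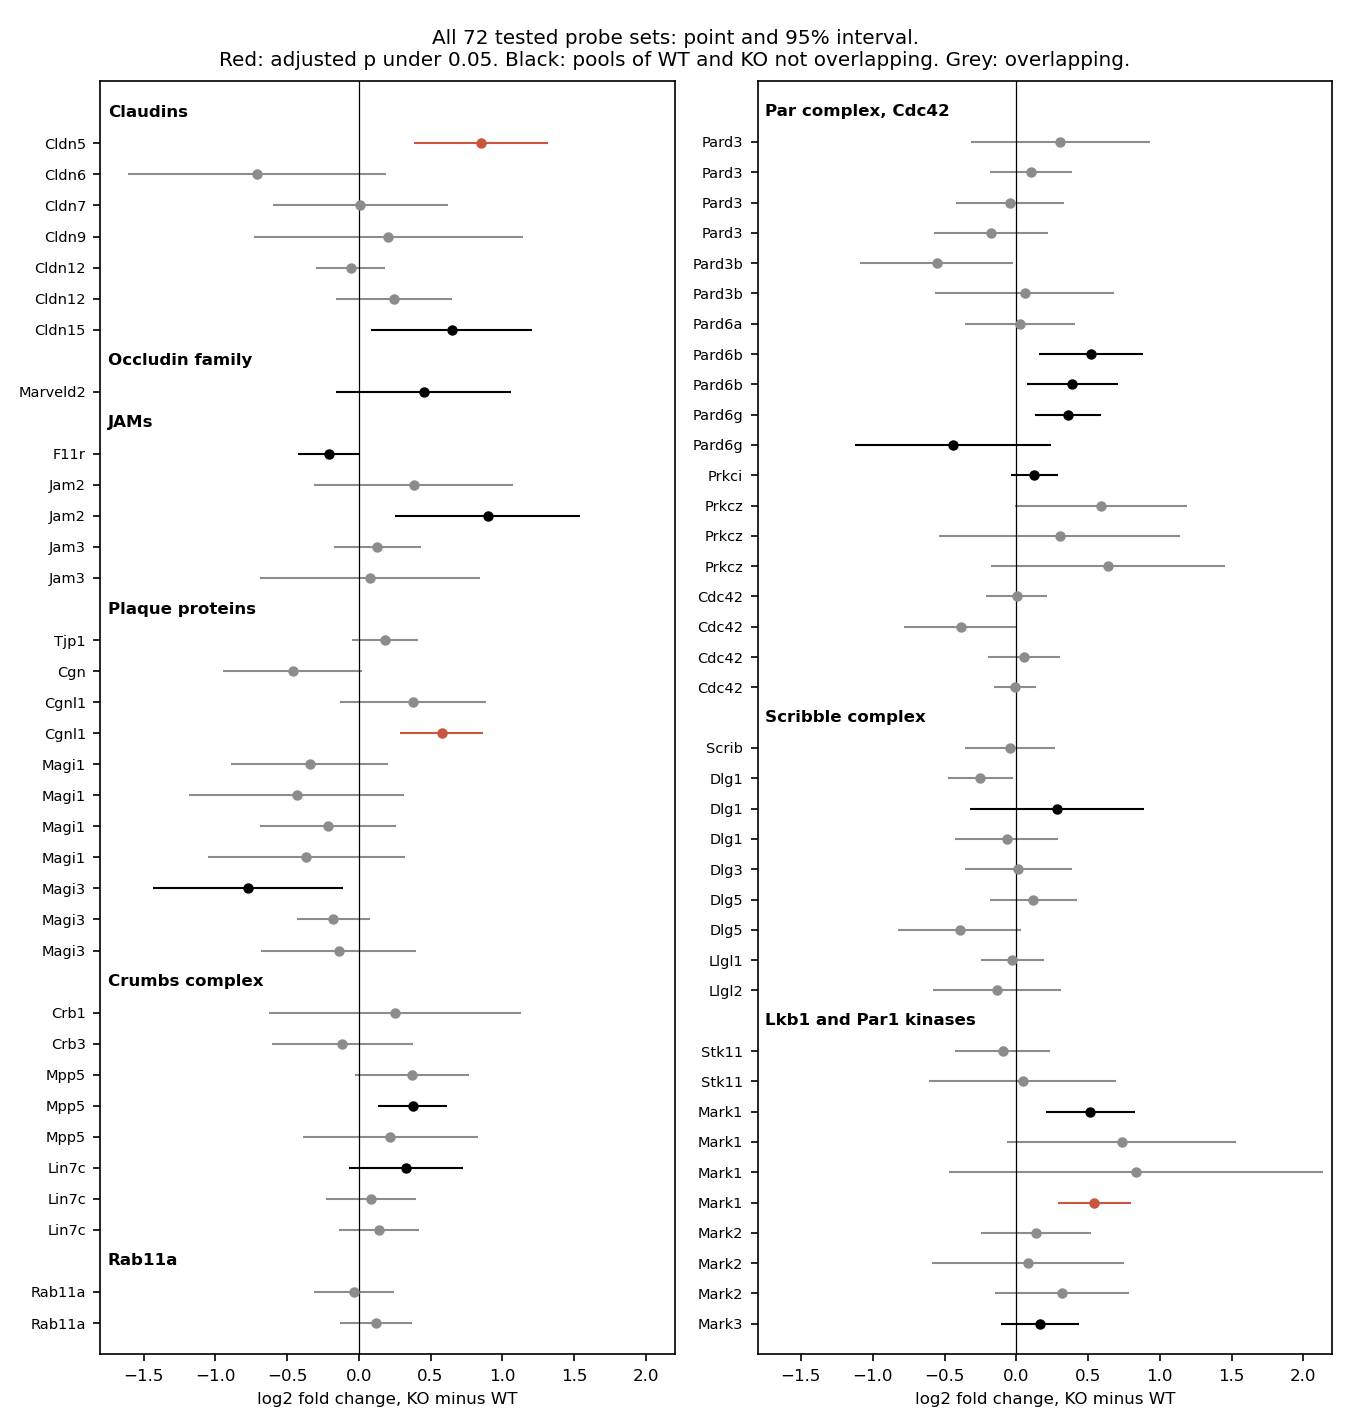
Log2 fold change (KO minus wild-type, horizontal axis) of the 72 tested member probe sets with 95% intervals, grouped by role, each row being 1 probe set. The 3 red points are the calls, Cldn5, Cgnl1 and Mark1, black marks probe sets whose wild-type and KO pools do not overlap, and most intervals cross 0.

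Mark1 was the member with the smallest p. Its kinase belongs to the Par1 family, which sits on the basolateral side, phosphorylates microtubule-associated proteins and keeps Par3 away from that membrane. The called probe set read 484, 508 and 467 in the wild-type and 689, 691 and 745 in KO pools, and the groups were far apart with little spread inside either (0.54, SE 0.12, adjusted p = 0.0181). A brighter probe set read 566, 581 and 734 against 1043, 780 and 867, also without overlap (0.52, SE 0.14, adjusted p = 0.0634). The suffixes of both mark probe sets that may also bind other transcripts. The remaining ones carry no such suffix. One of them lay under the dim limit at 8.0, 5.4 and 8.1 in the wild-type and at 24.0, 19.9 and 18.3 in KO pools. Without the filter on dim probe sets it gave 1.35 with an adjusted p of 0.0364. Of the other tested ones, the dimmer gave 0.73 (adjusted p = 0.337) and the brighter 0.83 (adjusted p = 0.537). The brighter one rests on wild-type replicate 3, which read 2.8 against 50.1 and 52.4, and without that pool it gave −0.06. All 5 Mark1 probe sets thus pointed upward with all pools in.

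**Figure D2:**
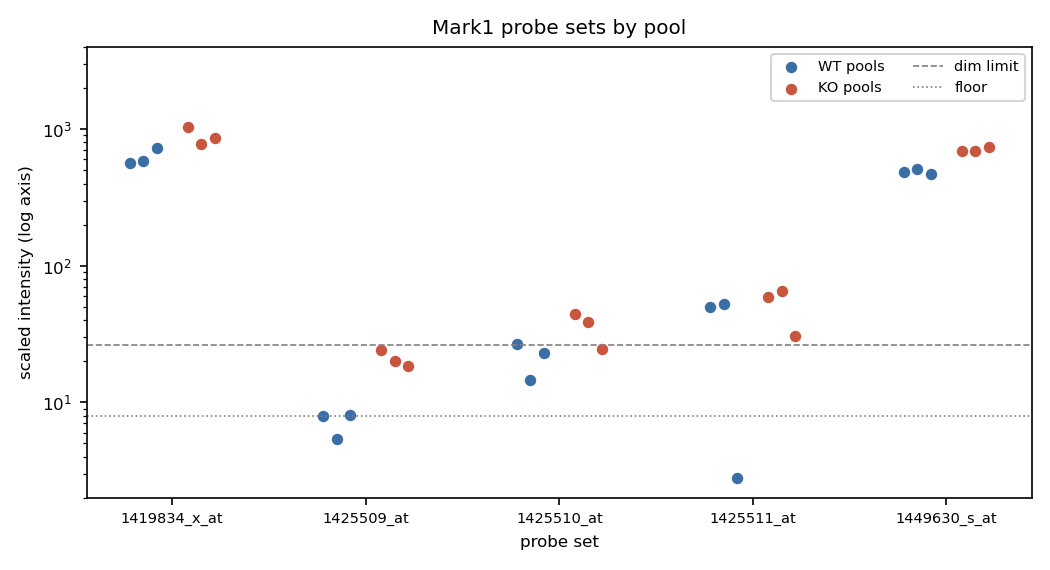
Scaled intensity (log axis) of the 5 Mark1 probe sets in each of the 3 wild-type and 3 KO pools, with the dim limit of 26.4 dashed and the floor of 7.99 dotted. KO pools lie above wild-type pools without overlap in 3 of the 5, and 1 wild-type pool reads 2.8 in another.

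The other kinases of this group did not pass. Mark2 gave 0.08 to 0.32 in 3 probe sets (adjusted p of at least 0.499). Mark3 read 469, 561 and 538 in the wild-type and 562, 622 and 573 in KO pools, a bare separation (0.17, SE 0.13, adjusted p = 0.562). Stk11, the Lkb1 kinase that activates the Par1 family, read 356, 349 and 448 against 406, 324 and 347 (−0.09, SE 0.15, 95% interval −0.43 to 0.24).

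Among the plaque proteins, Cgnl1 rose. It links junctions to small GTPase regulators and to microtubules. Its called probe set read 646, 593 and 477 in the wild-type and 883, 820 and 839 in KO pools, so the lowest KO pool lay above the highest wild-type pool (0.58, SE 0.13, adjusted p = 0.0243). A second, dimmer one read 85.0, 118 and 71.2 against 98.9, 116 and 138, with overlap (0.38, SE 0.24, adjusted p = 0.457). Cgn, the closely related cingulin, ran the other way in its tested probe set, at 134, 202 and 125 against 96.7, 103 and 130 (−0.46, SE 0.22, adjusted p = 0.316). The difference between Cgnl1 and Cgn was not tested.

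Tjp1, which encodes the scaffold ZO-1, read 2143, 2154 and 2672 in the wild-type and 2644, 2443 and 2798 in KO pools. The groups overlapped through wild-type replicate 3 (0.18, SE 0.11, adjusted p = 0.417), and the 95% interval of the fold was 0.97 to 1.33. The membrane-associated guanylate kinases Magi1 and Magi3, scaffolds under the junction, gave negative values in all 7 tested probe sets, from −0.77 to −0.14. The largest was a dim Magi3 probe set at 43.7, 35.8 and 46.9 against 25.8, 28.9 and 19.8 (−0.77, SE 0.31, adjusted p = 0.208). Its brighter counterpart read 806, 953 and 925 against 729, 803 and 837 (−0.18, SE 0.12, adjusted p = 0.486). Tjp3 (ZO-3) stayed between 19.3 and 32.4 and was not tested. Of the plaque group, 3 of 11 tested probe sets, which read 5 genes, were positive, with a median of −0.21, and only the Cgnl1 call passed. With the dimmest 60% left out the median was 0.00, and without wild-type replicate 2 it was −0.13.

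Of the 13 claudins, 6 were tested. Cldn5, in its only probe set, read 146, 179 and 137 in the wild-type and 260, 380 and 210 in KO pools. The groups did not overlap, but the KO spread was wide (0.85, SE 0.22, adjusted p = 0.0411). KO replicate 2 was the highest of the 3, and without it the log2 fold change was 0.62 (adjusted p = 0.174). Cldn15, a pore-forming claudin, read 74.1, 45.7 and 78.2 against 121, 100 and 84.3, again without overlap (0.65, SE 0.26, adjusted p = 0.209). Cldn12 gave 2759, 2126 and 2503 against 2231, 2608 and 2240 in its brighter probe set (−0.06, SE 0.11, adjusted p = 0.853) and 0.25 in the other.

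Cldn6, a claudin of early embryonic epithelia, read 46.3, 52.1 and 56.6 in the wild-type but 23.2, 68.9 and 19.6 in KO pools, KO replicate 2 lying apart from the other KO pools (−0.71, SE 0.41, adjusted p = 0.428). Without that pool Cldn6 gave −1.27 (adjusted p = 0.0622). Its neighbour on the chromosome, Cldn9, scattered too, with KO pools at 56.0, 28.4 and 15.8 (0.20, SE 0.43). Cldn7 stood close to 0 (0.01, SE 0.28, 95% interval −0.60 to 0.62). The claudins best known from sealed adult epithelia, Cldn1, Cldn3 and Cldn4, had no tested probe set, and their values ran from 0.3 to 29.4. Cldn2, Cldn10, Cldn11 and Cldn23 were also under the limit. Cldn2 lies on the X chromosome, and its brighter probe set read 17.3, 9.6 and 29.2 against 20.4, 23.8 and 26.5.

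The occludin family was mostly dim. Ocln itself read 19.1, 25.7 and 16.5 in the wild-type and 12.2, 16.7 and 13.5 in KO pools at the brighter of its probe sets and was not tested, and Marveld3 was not tested either. Marveld2 (tricellulin), which closes the corners where 3 cells meet, read 27.2, 31.1 and 36.7 against 46.3, 40.2 and 42.7, without overlap (0.45, SE 0.28, adjusted p = 0.459). A value under the dim limit does not show that a gene is silent, since amplification in 2 rounds shortens the copied RNA, which lowers probe sets distant from the 3' end.

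JAMs are adhesion molecules of the immunoglobulin family that recruit Par3 to new junctions. F11r (JAM-A), the epithelial member, read 1413, 1366 and 1276 in the wild-type and 1195, 1126 and 1191 in KO pools, a small difference without overlap (−0.21, SE 0.10, adjusted p = 0.313). Jam2 (JAM-B), known from endothelium, read 38.7, 50.5 and 33.1 against 85.4, 95.5 and 51.2 in one probe set, and its lowest KO pool barely cleared the highest wild-type pool (0.90, SE 0.30, adjusted p = 0.122, and 0.72 without KO replicate 2). Its other tested probe set gave 0.38 (adjusted p = 0.609). Jam3 (JAM-C) read 363, 450 and 425 against 468, 409 and 474 (0.13, SE 0.14, adjusted p = 0.708).

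Cldn5 and Jam2 went with markers of endothelium. The 12 markers of that list, all with a probe set, summed to 1484, 1533 and 1095 in the wild-type and 1965, 2148 and 1930 in KO pools, without overlap. KO replicate 2, which stood apart in the neural list, was highest in the sum, in Cldn5 and in Jam2. It was highest in most of the 12 markers, including Egfl7 and Plvap, the brightest ones. In the KO pools Emcn read 85.4, 40.3 and 54.5 and Flt1 85.9, 51.8 and 72.8, so that pool was the lowest there, and Sox18 was highest in KO replicate 1. Of 10 tested, 3 rose (Tek, Emcn and Egfl7) and 0 fell. Cdh5, the defining cadherin of endothelium, read 41.5, 52.9 and 40.9 against 62.5, 72.2 and 66.7 (0.58, adjusted p = 0.235), while Pecam1 and Tie1 stayed under the dim limit in every pool. Esam, an endothelial relative of the JAMs, read 149, 125 and 116 against 168, 201 and 181 (0.50, SE 0.18, adjusted p = 0.16). The part of endothelial cells in the Cldn5 rise was not tested.

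**Figure D3:**
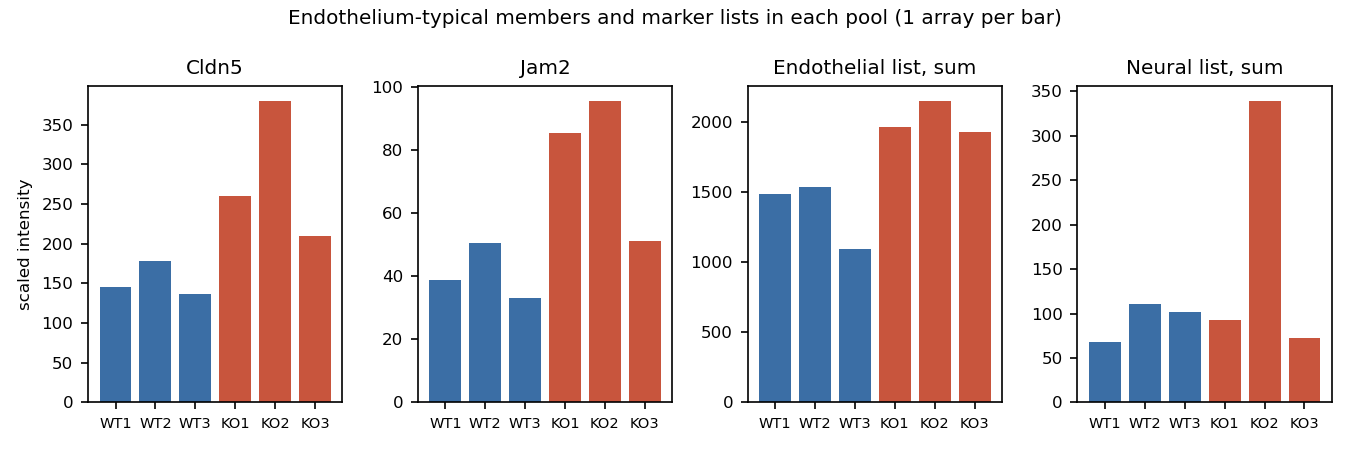
Scaled intensity of Cldn5 and Jam2 and the summed scaled intensities of the 12 endothelial and the 3 neural markers, 1 bar for each pool. All KO pools exceed all wild-type pools in the first 3 panels, and KO replicate 2 is highest in each panel, by far in the neural sum (339).

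The Par complex had 19 tested probe sets for 8 genes, of which 13 were positive and 0 passed, with a median of 0.06 (from 0.03 without wild-type replicate 3 to 0.12 without KO replicate 1). The Par6 adaptors, which couple Cdc42 to atypical protein kinase C, stood nearest to the threshold. Pard6g read 1384, 1572 and 1583 in the wild-type and 1952, 2122 and 1759 in KO pools, without overlap (0.36, SE 0.11, adjusted p = 0.0763). Its dim second probe set pointed the other way, at 33.4, 38.4 and 28.2 against 28.0, 24.6 and 21.1 (−0.44, SE 0.31, adjusted p = 0.534). Pard6b read 172, 149 and 203 against 256, 238 and 252 in one probe set (0.52, SE 0.17, adjusted p = 0.11) and 235, 244 and 286 against 313, 335 and 352 in the other (0.39, SE 0.15, adjusted p = 0.18). Both separated the groups. Pard6a, the remaining Par6 gene, read 191, 190 and 159 against 156, 208 and 188 (0.03, SE 0.18).

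The kinases of this complex did not pass. Prkci, an atypical protein kinase C, read 3914, 3881 and 4142 in the wild-type and 4412, 4403 and 4218 in KO pools (0.13, SE 0.08, adjusted p = 0.441). Prkcz, the other one, gave 0.30 to 0.64 in 3 probe sets, at the lowest p 130, 91.3 and 55.0 against 142, 119 and 132 (adjusted p = 0.294). The scaffold Pard3 gave −0.18 to 0.31 in 4 probe sets. Its paralogue Pard3b read 141, 84.6 and 120 against 96.1, 72.1 and 65.2 in one probe set (−0.56, SE 0.25, adjusted p = 0.267) and 0.06 elsewhere. Cdc42 gave −0.01 to 0.05 in 3 of its 4 probe sets, and the fourth read 659, 408 and 575 against 423, 345 and 473 (−0.39, SE 0.18, adjusted p = 0.3).

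Within the Crumbs complex 7 of 8 tested probe sets were positive (87.5%, against 50.9% of the array) and 0 passed (median 0.24). The 8 read only 4 genes, and Mpp5 and Lin7c, with 3 probe sets each, gave most of the positive values. Without wild-type replicate 1 the median was 0.07 with 5 of 8 positive, and without KO replicate 1 it was 0.15, also with 5 of 8. Mpp5 (Pals1), the scaffold that joins Crumbs to its partners, read 756, 905 and 857 in the wild-type and 1095, 1051 and 1114 in KO pools in the probe set with the smallest p (0.38, SE 0.11, adjusted p = 0.08). Its other probe sets gave 0.37 and 0.22, so all 3 were positive. Lin7c, a PDZ adaptor of Mpp5, read 110, 134 and 120 against 159, 164 and 135 in one probe set (0.33, SE 0.18, adjusted p = 0.393) and gave 0.08 and 0.14 in brighter ones. Crb3, the Crumbs protein of epithelia, read 76.2, 68.4 and 78.1 against 59.9, 82.3 and 64.8 (−0.12, SE 0.23, adjusted p = 0.853). Crb1 had a tested probe set at the limit (0.25, SE 0.41). Lin7a and Lin7b had none, although 1 Lin7b probe set, with a mean just under the limit, read 47.2, 38.7 and 28.2 against 13.3, 19.0 and 19.6. Without the filter that probe set gave −1.13 with an adjusted p of 0.216. Among the other untested probe sets of the complex, 1 of Lin7a read 2.6, 3.7 and 1.3 against 15.3, 12.9 and 16.1 (0.88 without the filter, adjusted p = 0.0545). A Crb1 probe set read 4.4, 8.3 and 2.9 against 26.0, 10.8 and 18.1 (1.09, adjusted p = 0.31). Both were separated upward and under the dim limit.

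The Scribble complex, basolateral in position, had 9 tested probe sets for 6 genes, of which 3 were positive. The median was −0.04, and it ranged from −0.14 without KO replicate 2 to 0.00 without KO replicate 1. Scrib read 520, 487 and 414 in the wild-type and 418, 527 and 437 in KO pools (−0.04, SE 0.14, 95% interval −0.36 to 0.27). Dlg1, a scaffold of that complex, read 2408, 2061 and 2255 against 2113, 1769 and 1780 at its brightest probe set, with overlap (−0.25, SE 0.10, adjusted p = 0.23), and −0.07 and 0.29 elsewhere. Llgl1 read 3043, 3516 and 2807 against 2810, 3050 and 3304 (−0.03, SE 0.10), and Llgl2 gave −0.14 (SE 0.21). Dlg5 gave 0.12 and −0.40 in its tested probe sets. Dlg3, an X-linked member, read 191, 147 and 168 against 172, 161 and 175 (0.01, SE 0.17). Rab11a, the GTPase of recycling endosomes that delivers apical cargo, gave −0.03 and 0.12.

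**Figure D4:**
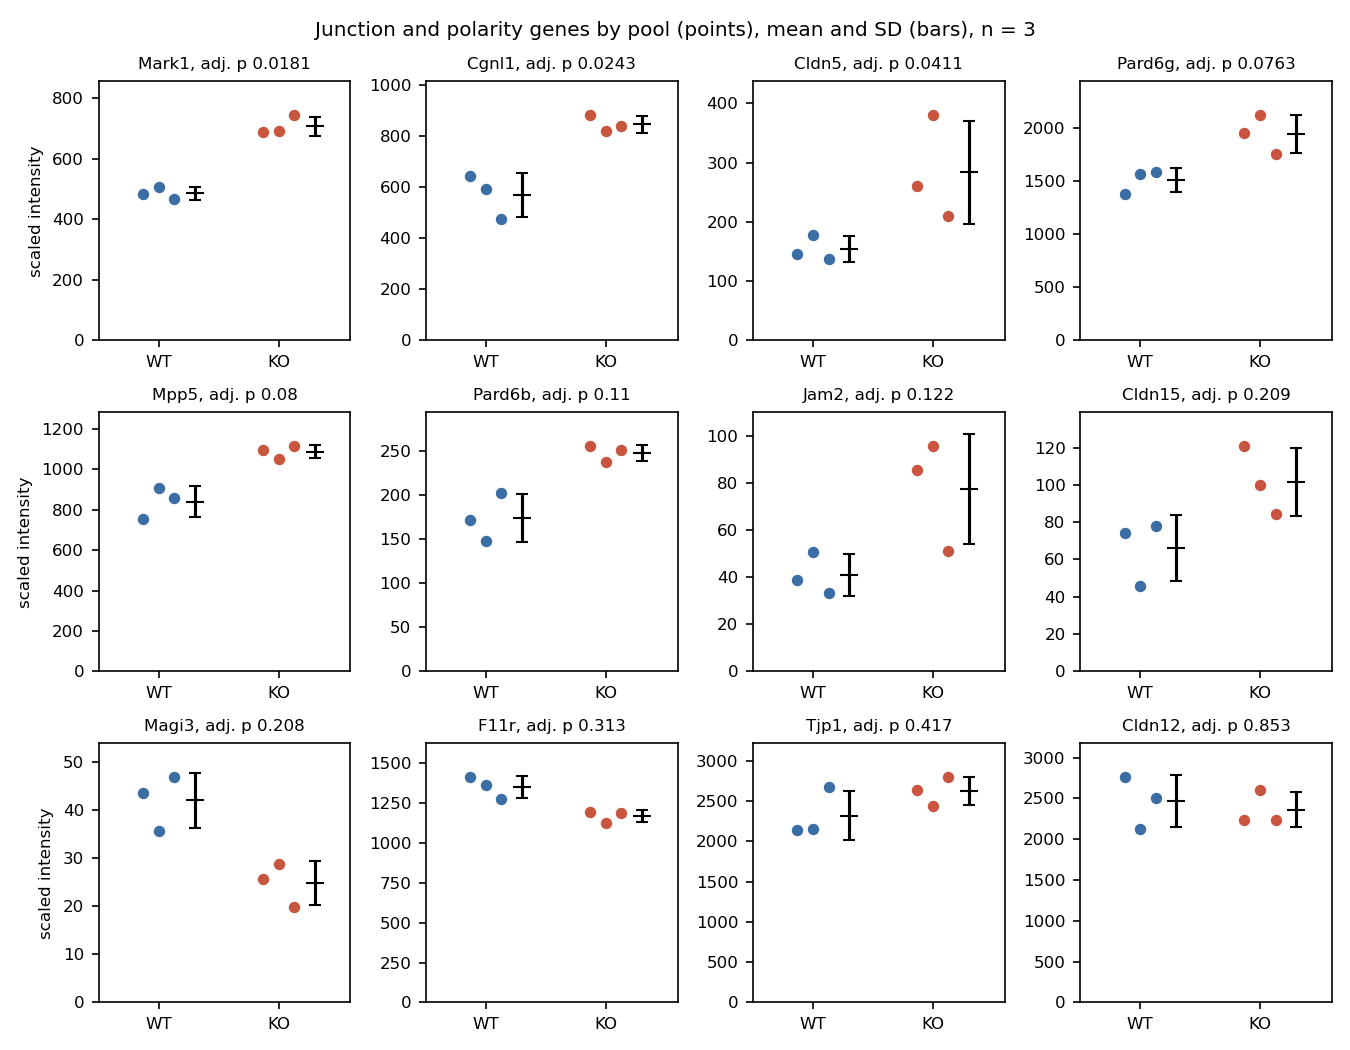
Scaled intensity (linear axes from 0) of 12 member probe sets in the 3 wild-type and 3 KO pools, with the mean and SD of each group and limma's adjusted p above. Mark1, Cgnl1 and Cldn5 passed, Pard6g, Mpp5, Pard6b, Jam2 and Cldn15 separate the groups upward, Magi3 and F11r downward, and Tjp1 and Cldn12 overlap.

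Probe sets of one gene did not always read alike. Of the 20 member genes tested through more than 1 probe set, 11 gave 1 sign throughout and 9 gave both signs. Those of 1 sign included Mark1, Mpp5, Pard6b, Prkcz and Jam2 on the positive side and Magi1 and Magi3 on the negative side. Pard6g, Dlg1, Dlg5, Cdc42, Pard3, Pard3b, Cldn12, Rab11a and Stk11 gave both. With all tested probe sets of a gene averaged, 1 member gene passed, Cldn5 (adjusted p = 0.0316), while Mark1 and Cgnl1 gave 0.0827 and 0.099. Cldn5 was read by a single probe set, so averaging left its log2 fold change at 0.85 and does not check that call.

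No call held in every alternative. With 1 pool left out in turn, each of the 3 passed in 2 of 6 fits: Mark1 failed without wild-type replicate 1 or any KO pool, Cgnl1 without wild-type replicate 3 or any KO pool, and Cldn5 without wild-type replicates 1 or 3 or KO replicates 1 or 2. No member passed without KO replicate 1 or without KO replicate 2, where 815 and 834 probe sets of the array still did. Directions held, Mark1 ranging from 0.51 to 0.57, Cgnl1 from 0.45 to 0.67 and Cldn5 from 0.62 to 1.04.

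For these 3 genes the 250 bases before the annotated start sites are shown, since they are the members that passed. Sequences are from RefSeq for GRCm38.p6, written 5' to 3' on the gene's strand, with each GC box, GGGCGG or its reverse complement CCGCCC, in capitals. That hexamer is the core that Sp and Klf zinc finger factors bind. Cldn5 lies at chr16:18776597-18776846 (plus strand), Cgnl1 at chr9:71771603-71771852 (minus), and the 2 starts of Mark1 at chr1:184999550-184999799 and chr1:184999955-185000204 (both minus).
Cldn5: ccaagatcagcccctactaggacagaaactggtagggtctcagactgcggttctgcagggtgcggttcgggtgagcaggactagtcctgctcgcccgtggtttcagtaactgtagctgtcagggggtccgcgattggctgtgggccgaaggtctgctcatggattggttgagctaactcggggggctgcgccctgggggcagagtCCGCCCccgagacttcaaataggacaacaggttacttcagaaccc
Cgnl1: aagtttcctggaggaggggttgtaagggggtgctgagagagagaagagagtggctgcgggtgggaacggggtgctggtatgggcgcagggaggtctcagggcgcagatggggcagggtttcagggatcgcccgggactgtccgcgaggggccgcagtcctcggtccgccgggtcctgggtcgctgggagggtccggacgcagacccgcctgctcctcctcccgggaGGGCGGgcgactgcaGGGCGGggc
Mark1, first: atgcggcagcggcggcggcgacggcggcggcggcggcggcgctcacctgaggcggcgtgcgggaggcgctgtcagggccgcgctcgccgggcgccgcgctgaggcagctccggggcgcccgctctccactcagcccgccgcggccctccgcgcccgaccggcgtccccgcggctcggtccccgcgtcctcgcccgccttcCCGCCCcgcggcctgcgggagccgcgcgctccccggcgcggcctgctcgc
Mark1, second: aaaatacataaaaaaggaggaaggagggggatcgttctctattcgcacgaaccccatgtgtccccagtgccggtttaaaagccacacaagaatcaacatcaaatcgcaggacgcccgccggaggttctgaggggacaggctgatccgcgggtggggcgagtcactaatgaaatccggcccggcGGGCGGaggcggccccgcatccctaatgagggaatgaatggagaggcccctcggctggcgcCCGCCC
Each of the 4 stretches holds 1 or 2 GC boxes. Their counts of CG dinucleotides are 12 for Cldn5, 20 for Cgnl1, 52 and 20 for Mark1. The median over all promoters of the table, which include those of non-coding genes, is 6. That over coding ones alone was not taken. Over the 42 member genes with an entry, 43 of 63 promoters (68.3%) hold a GC box, against 42.6% of the 21263 promoters of protein-coding genes and 32.7% of all 32851. The E-box CAGGTG (reverse complement CACCTG), which Snail and Zeb repressors bind, occurs in 1 of the 4 stretches, the first of Mark1, in 28.6% of member promoters and in 16.9% of coding ones. The homeodomain core TAATTA, which is its own reverse complement, occurs in none of the 4, in 2 of 63 member promoters (3.17%) and in 4.31% of coding ones. None of the 3 hexamers contains another, and the matches are descriptions of letters only.

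Other junction and polarity genes outside the list were read by 1 probe set each, the brightest. Of 46 with a probe set, 37 were tested, 1 rose and 2 fell (8.11% in all, against 5.41% of all genes read in this way, 2.93% higher and 2.48% lower), with a median of 0.01. This further list was chosen with earlier results of these data known, so the shares are a description only. Shroom3, the actin-binding protein that drives apical constriction at the junction belt, read 1871, 2348 and 1791 in the wild-type and 658, 677 and 686 in KO pools, the smallest p among these genes (−1.56, SE 0.12, adjusted p = 1.71e-05). Another of its probe sets also fell, from 209, 271 and 150 to 57.2, 83.5 and 113 (−1.33, SE 0.27, adjusted p = 0.0131). The remaining tested one gave −1.15, with overlap between the groups (adjusted p = 0.102). The brightest Shroom3 probe set carries a suffix that marks possible binding to other transcripts. The Shroom3 call at the brightest probe set held in all 12 alternatives that could test it, including each pool left out in turn. Rab3ip, which activates the vesicle GTPase Rab8 in apical delivery, fell (−0.49, SE 0.12, adjusted p = 0.0407). It read 507, 540 and 568 in the wild-type and 388, 379 and 380 in KO pools. This call was lost whenever a pool was left out. The other Rab3ip probe set gave −0.25, also without overlap (adjusted p = 0.418). Ezr, which anchors actin under the apical membrane, rose from 1176, 1346 and 1183 to 1787, 1534 and 1983 (0.51, SE 0.12, adjusted p = 0.022), while another of its probe sets gave −0.14. The Ezr call passed in 3 of 6 fits with 1 pool left out (adjusted p up to 0.115) and was lost without the filter (adjusted p = 0.19).

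Cldn8, a claudin of the nephric duct lineage in this further list, was not tested because its mean lay under the dim limit. It read 44.9, 44.7 and 73.2 in the wild-type and 1.3, 11.3 and 1.3 in KO pools, and without the filter it gave −2.55 (adjusted p = 0.0603). Some markers of nephric duct and tubule epithelium were lower in KO pools as well, but not all. Calb1 gave 0.17 (adjusted p = 0.654), and Gata3 gave −0.93 with overlap (adjusted p = 0.269). Emx2 gave −0.05 (adjusted p = 0.916), but it is the gene knocked out and its probe set's place relative to the deleted part is unknown. Its level therefore cannot serve as a marker of this epithelium here. Ret and Wnt9b were not tested and overlapped between groups. Pax8 fell from 90.8, 101 and 84.5 to 50.6, 37.7 and 24.2 (−1.36, SE 0.29, adjusted p = 0.0166) and Lhx1 from 75.8, 45.5 and 59.1 to 20.6, 22.4 and 19.3 (−1.51, SE 0.30, adjusted p = 0.0116). Cdh16, a cadherin of that epithelium, was not tested and read 56.3, 43.2 and 52.6 against 5.0, 18.0 and 7.2. Of the 8 such markers with a probe set, 5 were tested, 2 fell and 0 rose. The list's sum overlapped between groups (2098 to 2924 in wild-type, 2131 to 2518 in KO pools), but it was carried by Emx2 and does not tell of the other markers. The part of nephric duct and tubule epithelium in the values of Cldn8 was not tested.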

How the data were processed

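Each of the 6 1-channel arrays holds 1 pool. The values are intensities as deposited, 1 linear number per probe set; per the submitters' processing notes the software was GCOS 1.2, whose algorithm and scaling are not given in the sources used here. Per the labels' protocols, sections of 30 µm were microdissected and 15 ng of total RNA was amplified over 2 rounds. Trimmed means (2% off each end) differed by up to 1.47 times, so arrays were scaled to a common one (309.2). The 64 control probe sets and the dimmest 40% were left out, and limma 3.58.1 in R 4.3.3 was run with an intensity trend (prior of 8.74 degrees of freedom). Probe sets were named from the platform annotation, and all 50 matched member genes had the same symbol in RefSeq (GRCm38.p6). The number of arrays limits the precision, the median SE being 0.19 over all tested probe sets.

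The members and lists were chosen with earlier results of these data known. Named were passing members, Tjp1, the next 12 by p, up to 2 more per role group, X-linked ones and those with disagreeing probe sets. The further members named, the other probe sets of Shroom3 and Rab3ip, and Cldn8 were picked after their values were seen. Same-numbered pools did not deviate together (correlations of −0.065, 0.04 and −0.051), so they were not paired. The alternatives were quantile normalization, median scaling, a floor at the 40th percentile, no filter, a filter of 60%, a replicate block, each pool left out and gene-level values. Leaving out probe sets with the suffix _s_at or _x_at was an alternative chosen after seeing the data. The fit was first tested on simulated data with known changes.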

Additional observations from a re-analysis of the deposited data

How the results depend on the processing

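Called members were 2 to 4 probe sets in the alternatives that kept all pools, 3 genes by the brightest probe set, 1 gene by gene means, and 0 to 3 probe sets with 1 pool left out; those of the whole array were 721 to 1682 with 1 pool left out and 151 without the filter on dim probe sets. Called genes of the further list were 1 to 4 with 1 pool left out and 1 without the filter. The members' median log2 fold change (0.09) was 0.065 under median scaling, 0.052 without the filter, 0.12 with the dimmest 60% left out, 0.12 for the brightest probe set of each gene, 0.045 for gene means, and 0.060 to 0.11 with 1 pool left out. With the replicate number as a block 1160 probe sets of the array and the same number of members, 3, passed. The numbers did not pair the pools. Quantile normalization left 2 members, Cldn5 having an adjusted p of 0.0533 there (0.0224 to 0.297 over its alternatives). Without the filter, Cldn5 and Cgnl1 did not pass (adjusted p = 0.297 and 0.175), and the cause was not tested. The Mark1 probe set in which wild-type replicate 3 read 2.8 gave −0.060 without that pool and up to 1.30 with another left out. Signs also turned in 22 other member probe sets, none called, with log2 fold changes of at most 0.30 in size. Array number and signals near the floor limit what could be seen; the cause of the other shifts was not tested.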
